A study of Caenorhabditis elegans with 4 samples.

Results

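The cohesin genes of the C. elegans gonad were examined in mRNA-seq data as 8 genes taken by name from the 20389 genes of the deposited tables. They were rec-8, coh-3, coh-4, scc-1, coh-1, smc-3, him-1 and pqn-85, and all 8 were found, had reads in every library and passed the expression filter, as did 10875 genes in all. Gonads were dissected from adult hermaphrodites of 2 genotypes. Both carried the him-8(tm611) allele, and the met-2;him-8 genotype also carried met-2(n4256) and so lacked MET-2, the methyltransferase that makes most H3K9me2 in the germ line. In him-8 animals the X chromosomes do not pair or synapse. There was no wild-type group, and the met-2 animals, which were fertile, had come out of a balanced stock not long before use. Each genotype had 2 libraries, each prepared from 400 gonad arms and 1.2 micrograms of total RNA. By the study's methods these were separate sets of dissected gonads. The genotypes are called mutant (met-2;him-8) and control (him-8), although the control is itself a him-8 mutant. The comparison asks whether transcript levels in gonads with unsynapsed X chromosomes differ when H3K9me2 is lost.

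Cohesin is a ring-shaped complex that holds sister chromatids together from replication until they separate. The ring is made of an SMC1 and an SMC3 subunit closed by a kleisin, and a loader places it on chromosomes. In meiosis specialised kleisins take the place of the mitotic one, organise the chromosome axis on which homologs synapse, and are cut stepwise so that homologs separate before sisters. In C. elegans, rec-8, coh-3 and coh-4 encode the meiotic kleisins, scc-1 the mitotic kleisin and coh-1 a kleisin known from somatic cells. him-1 encodes the SMC1 subunit, smc-3 the SMC3 subunit and pqn-85 the SCC2-type loader, and the reference annotation lists pqn-85 under the name scc-2.

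The libraries held 14255714 to 49848077 counted reads. Transcripts of met-2 were at 39.3 ± 19.1 CPM (read counts relative to the library size after TMM scaling, here as mean ± SD of 2 libraries) in the mutant and 170 ± 59.9 CPM (SD, n = 2) in the control, and no mutant library reached the level of a control library, which fits the labels. The log2 fold change of met-2 was -2.11 (SE 0.46, adjusted p = 0.886 in edgeR's quasi-likelihood test), so that even this gene did not pass the threshold described next. The 4 germ line markers (glh-1, pgl-1, gld-1, glp-1) summed to at least 4450 CPM in each library. The 2 gonadal sheath markers (lim-7 and ceh-18) summed to 4.68 to 7.88 CPM, the 2 hypodermal markers (dpy-7 and rol-6) to at most 0.231 CPM, and the 3 markers of spermatogenesis (spe-9, spe-11 and fer-1) to at most 9.63 CPM. After Benjamini-Hochberg adjustment over all tested genes in edgeR's quasi-likelihood test, 0% of the tested genes differed between the genotypes at an adjusted p below 0.05, and 4.84% had an unadjusted p below 0.05. In DESeq2's Wald test 26 genes (0.239%) passed the adjusted threshold, and in edgeR with the replicate number as a block 1.32% did. In tissue such as this, fewer cells of a type and less RNA per cell cannot be told apart.

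None of the 8 cohesin genes passed the adjusted threshold of 0.05 between the genotypes (0 of 8 in edgeR's quasi-likelihood test, with or without the block, and 0 of 8 in DESeq2's Wald test). At an unadjusted p below 0.05 there were also 0 of 8 in edgeR. The log2 fold changes of the mutant over the control lay between 0.18 and 0.89 with a median of 0.31, against a median of 0.02 over all tested genes. All 8 estimates were above 0, as were 51.5% of the tested genes. With the replicate number as a block, those of smc-3 and him-1 were -0.12 and -0.11. Median fold changes also differed by gene length, as given below. For a single value, exact permutation of the 4 libraries (two-sided) cannot reach a p under 0.33. In this fit the 8 genes fell into 2 kinds. The 5 kleisin genes had standard errors (SE) of 0.23 to 0.36. In contrast, smc-3, him-1 and pqn-85 had standard errors of 0.79 to 1.0 and differed widely between libraries of the same genotype. With no expression filter the standard errors did not divide the genes, at 0.30 to 0.47 for the kleisin genes and 0.29 to 0.31 for the others.

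**Figure D1:**
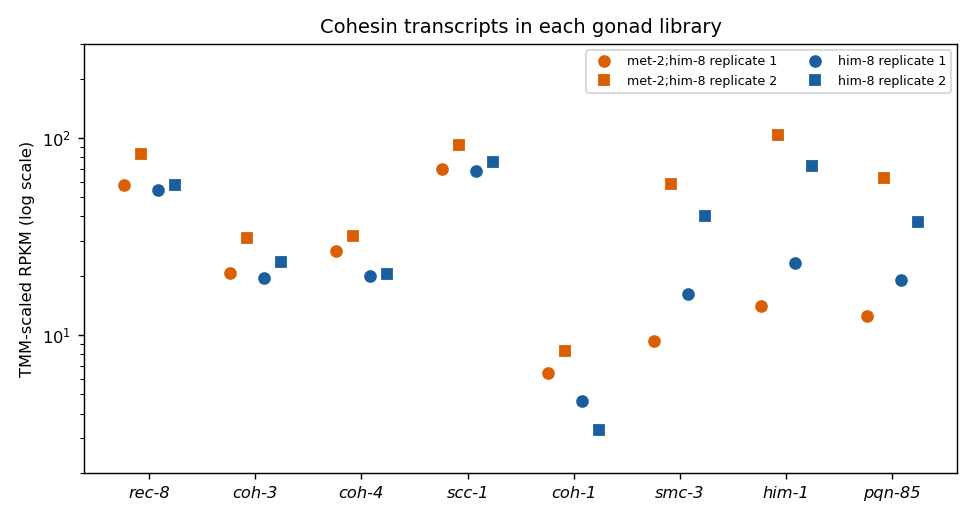
TMM-scaled RPKM, the CPM per kilobase of annotated exon (log axis), for the 8 cohesin genes in each library, with met-2;him-8 in orange, him-8 in blue, replicate 1 as circles and replicate 2 as squares. The libraries lie close together for rec-8, coh-3, coh-4 and scc-1, while for smc-3, him-1 and pqn-85 both squares lie above both circles.

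The meiotic kleisin rec-8 (W02A2.6, chromosome IV, 13349217 to 13353169, positions being those of the deposited tables), which holds sister chromatids together through the first meiotic division, was at 143 and 204 CPM in the mutant libraries and at 133 and 143 CPM in the control libraries. Mutant replicate 2 stood above the other libraries, and the lower mutant library was level with the higher control library. The log2 fold change was 0.33 (SE 0.25, adjusted p = 0.914 in edgeR's quasi-likelihood test), with a 95% interval of -0.32 to 0.98. Without mutant replicate 2 it was 0.04.

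coh-3 (F08H9.1, chromosome V, 14457460 to 14459882) and coh-4 (Y45G5AM.8, chromosome V, 4170106 to 4175611) encode closely related kleisins that work redundantly in building the meiotic chromosome axis. Transcripts of coh-3 were at 43.7 and 66 CPM in the mutant and at 41.2 and 49.6 CPM in the control, and the libraries of the genotypes overlapped. Its log2 fold change was 0.27 (SE 0.31, adjusted p = 0.957 in edgeR's test), with a 95% interval of -0.53 to 1.07, and it was -0.07 without mutant replicate 2. Transcripts of coh-4 were at 55.0 and 65.8 CPM in the mutant and at 41.0 and 42.2 CPM in the control, so that both mutant libraries lay above both control libraries. The log2 fold change of coh-4 was 0.54 (SE 0.25, unadjusted p = 0.0827, adjusted p = 0.886 in edgeR's test), with a 95% interval of -0.10 to 1.18. Because reads of such similar genes may have been divided between them in counting, their reads were also summed. For the summed feature the log2 fold change was 0.41 (SE 0.25, adjusted p = 0.891 in edgeR's test).

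The mitotic kleisin scc-1 (F10G7.4, chromosome II, 4698718 to 4700794), which acts in the dividing germ cells of the distal gonad and in the embryo, was at 149 and 197 CPM in the mutant and at 145 and 161 CPM in the control. The libraries overlapped, and the log2 fold change was 0.18 (SE 0.23, adjusted p = 0.965 in edgeR's test), with a 95% interval of -0.42 to 0.78. It was -0.04 without mutant replicate 2.

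coh-1 (K08A8.3, chromosome X, 7466276 to 7475249) was the cohesin gene with the fewest reads and with the largest estimated change of the 8. Its transcripts were at 18.7 and 24.2 CPM in the mutant and at 13.5 and 9.65 CPM in the control, from 361, 808, 700 and 132 reads. Both mutant libraries lay above both control libraries. The 132 reads of control replicate 2 have an exact 95% Poisson interval of 110 to 157 reads, which covers counting error only, while the other cohesin counts ranged from 361 to 14769 reads. The log2 fold change was 0.89 (SE 0.36, unadjusted p = 0.0557, adjusted p = 0.886 in edgeR's test), with a 95% interval of -0.03 to 1.81, and its unadjusted p in DESeq2's Wald test was 0.0373. coh-1 is the only X-linked gene of the 8. The median log2 fold change was 0.21 over the 1295 tested X-linked genes and 0.00 over the 9580 tested autosomal genes, and 82.1% of the X-linked genes had a lower value than coh-1.

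Because coh-1 is known from somatic cells, markers of other tissues were read beside it. The 3 intestinal markers (ges-1, elt-2 and vit-2) summed to 288 and 270 CPM in the mutant and to 196 and 184 CPM in the control, mostly from the yolk protein gene vit-2. The 2 body wall muscle markers (myo-3 and unc-54) summed to 44.6 and 137 CPM in the mutant and to 34.6 and 28.9 CPM in the control. Both sums were higher in both mutant libraries, as for coh-1, and so were vit-2, myo-3 and unc-54 each alone. The muscle genes myo-3 and unc-54 are long, with 6104 and 6204 nucleotides of annotated exon, and values by gene length are given below. The other intestinal markers overlapped between the genotypes, with ges-1 at 5.34 and 1.08 CPM in the mutant and at 2.47 and 1.02 CPM in the control, and elt-2 at no more than 0.733 CPM in any library. The summed sheath markers overlapped between the genotypes, at 7.88 and 4.68 CPM in the mutant and at 5.78 and 7.31 CPM in the control. Alone, ceh-18 was higher in both mutant libraries, at 2.75 and 1.77 CPM against 1.47 and 0.804 CPM, while lim-7 overlapped. The summed neuronal markers (unc-119 and rab-3) also overlapped. They were at 6.68 and 6.0 CPM in the mutant and at 4.92 and 6.43 CPM in the control. Alone, rab-3 was lower in both mutant libraries, at 0 and 0.12 CPM against 0.443 and 0.439 CPM. So was the hypodermal marker dpy-7, at 0 CPM in both mutant libraries and at 0.231 and 0.146 CPM in the control. Neither gene had more than 23 reads in a library. Of these markers vit-2, elt-2, ceh-18 and dpy-7 are X-linked, as coh-1 is. The part of these tissues and of X linkage in the coh-1 values was not tested.

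How many of the kleisin genes separated the genotypes depended on the scaling. With TMM scaling, coh-4 and coh-1 were higher in both mutant libraries than in both control libraries, which was also true of 16.9% of all tested genes. None of the 8 genes was lower in both, as 19.8% of the tested genes were. With RLE scaling rec-8 was added to them, against 17.7% of the tested genes. With reads divided by library totals alone all 5 kleisin genes were separated in this way, against 15.9% of the tested genes. On that scale rec-8 was at 157 and 184 CPM in the mutant and at 139 and 137 CPM in the control. With each of these 3 scalings the genotypes overlapped for smc-3, him-1 and pqn-85.

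**Figure D2:**
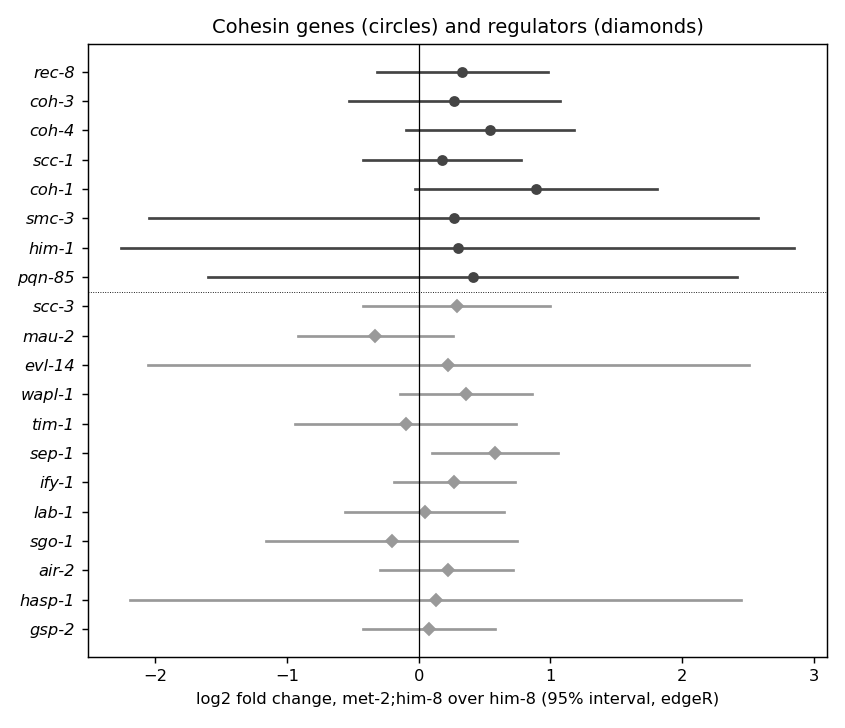
Log2 fold change of met-2;him-8 over him-8 with its 95% interval from edgeR's quasi-likelihood fit, for the 8 cohesin genes (circles, dark) and 12 genes that act on cohesin (diamonds, grey). The intervals of smc-3, him-1, pqn-85, evl-14 and hasp-1 are the widest, and of the 20 genes only sep-1 has an interval above 0, from 0.10 to 1.06.

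The core subunits smc-3 and him-1 and the loader pqn-85 varied far more between libraries of one genotype than between the genotypes. Transcripts of smc-3 (Y47D3A.26, chromosome III, 11290843 to 11305801) were at 37.3 and 234 CPM in mutant replicates 1 and 2 and at 64.8 and 161 CPM in control replicates 1 and 2. Transcripts of him-1 (F28B3.7, chromosome I, 4951811 to 4957661) were at 56.3 and 416 CPM in the mutant and at 93.6 and 291 CPM in the control. These CPM came from 1087, 13860, 4854 and 3986 reads of him-1, so counting error was small beside the spread. Transcripts of pqn-85 (Y43H11AL.3, chromosome II, 241114 to 255182) were at 87.9 and 443 CPM in the mutant and at 134 and 266 CPM in the control. For each of the 3 genes the order of the libraries was the same, with mutant replicate 1 lowest and mutant replicate 2 highest, and the control libraries lay between them. Both libraries numbered 2 were thus above both libraries numbered 1.

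The genotype estimates for these genes had wide intervals. The log2 fold change was 0.27 for smc-3 (SE 0.90, adjusted p = 0.983 in edgeR's test), with a 95% interval of -2.05 to 2.58. It was 0.30 for him-1 (SE 1.0, adjusted p = 0.983 in edgeR's test), with an interval of -2.26 to 2.85, and 0.41 for pqn-85 (SE 0.79, adjusted p = 0.976 in edgeR's test), with an interval of -1.60 to 2.42. Over all tested genes the median standard error was 0.48, and 82.8% of the genes had a smaller one than him-1. With no expression filter the estimates were close to these, at 0.29, 0.32 and 0.43, but the standard errors were 0.31, 0.29 and 0.29, and none of the 3 genes passed the adjusted threshold. Leaving out single libraries turned the direction of all 3 genes. Without mutant replicate 2 the log2 fold changes were -1.61 for smc-3, -1.78 for him-1 and -1.2 for pqn-85, and without control replicate 1 they were -0.26, -0.31 and -0.01. On the linear scale the interval for smc-3 ran from 0.242 to 5.99 times the control level.

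**Figure D3:**
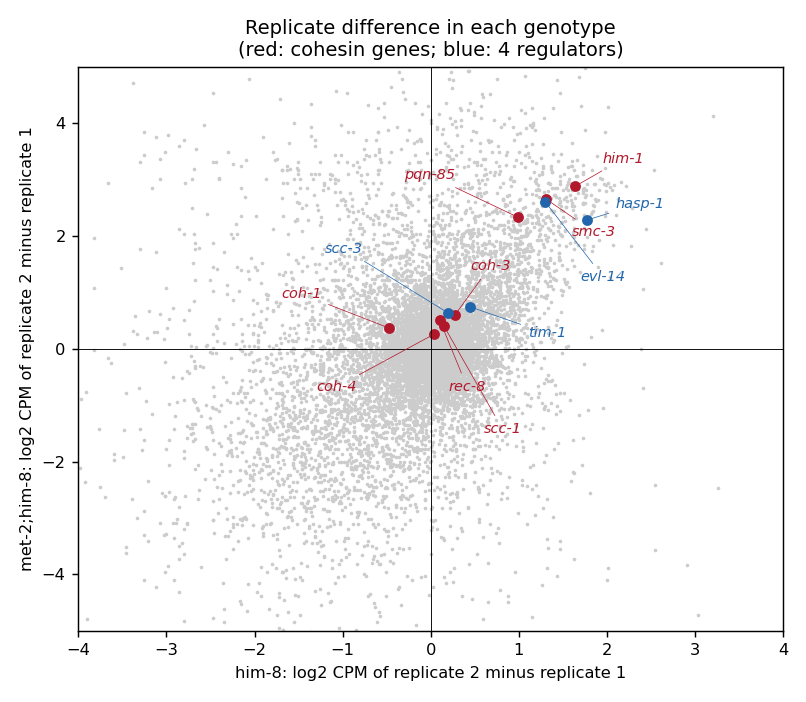
Difference in log2 CPM (prior count of 2) between replicate 2 and replicate 1, in him-8 on the horizontal axis and in met-2;him-8 on the vertical axis, for the 10875 tested genes (grey), the 8 cohesin genes (red) and 4 cohesin regulators (blue), with 44 genes outside the axes. him-1, smc-3, pqn-85, evl-14 and hasp-1 lie together at the upper right, apart from the kleisin genes and scc-3 near the centre.

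Set against the other genes, the replicate differences of smc-3, him-1 and pqn-85 were large in both genotypes. In the mutant, replicate 2 was 6.28-fold above replicate 1 for smc-3, 7.38-fold for him-1 and 5.04-fold for pqn-85. In the control the same ratios were 2.49, 3.11 and 1.99. The replicate difference of him-1 exceeded that of 96.6% of the tested genes in the mutant and of 99.0% in the control, and that of smc-3 exceeded 95.7% and 97.4%. Replicate 2 was at least 2-fold above replicate 1 in both genotypes for smc-3 and him-1, that is for 2 of the 8 genes, with pqn-85 just below that limit, against 4.08% of all tested genes. This pattern was noticed after the values were seen, and no test was made of it. For the kleisin genes the ratio of replicate 2 to replicate 1 lay between 1.20 and 1.51 in the mutant and between 0.715 and 1.20 in the control.

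Other properties of the libraries were read beside this difference. Replicate 2 was the deeper library in the mutant (36853036 against 17474062 reads) and the shallower one in the control (14255714 against 49848077 reads). Of the 3 markers of the meiotic chromosome axis and synaptonemal complex, syp-1 was 5.01-fold and 3.15-fold higher in replicate 2, in the mutant and control respectively. The others were not, at 0.728 and 1.06 for him-3 and at 1.08 and 1.18 for htp-3. The summed germ line markers were at 4450 and 5680 CPM in mutant replicates 1 and 2 and at 4510 and 5020 CPM in control replicates 1 and 2. The muscle gene myo-3 was 2.91-fold and 2.18-fold higher in replicate 2, whereas unc-54 stood at 3.10 and 0.758. The part of tissue makeup in the replicate difference was not tested.

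Replicate differences moved with gene length. In the mutant the median log2 difference of replicate 2 over replicate 1 was 0.05 for the 1770 tested genes with 2001 to 3000 nucleotides of annotated exon, the class that holds all 5 kleisin genes. It was 0.77 for the 468 genes of 4001 to 6000 nucleotides, where smc-3 (4003 nucleotides) and him-1 (4035) fall, and 1.51 for the 209 genes over 6000, where pqn-85 (7054) falls. In the control the same medians were 0.02, 0.13 and 0.18. Within their own length class the 3 genes were still toward the upper end. For him-1, 37 of the 468 genes had a larger replicate difference in the mutant and 5 had a larger one in the control, and for smc-3 there were 49 and 35. For pqn-85, 46 of the 209 genes of its class had a larger difference in the mutant and 21 in the control. The median log2 fold change between the genotypes was 0.04 over the 1770 genes of the kleisin class, where the kleisin genes were at 0.18 to 0.89. It was 0.23 over the 468 genes of the next class named, close to the 0.27 of smc-3 and the 0.30 of him-1. Over the 209 genes it was 0.47, close to the 0.41 of pqn-85. The muscle markers myo-3 (6104 nucleotides) and unc-54 (6204) fall in the same class. In the mutant their log2 replicate differences were 1.53 and 1.63, close to the class median of 1.51. In the control their replicate 2 stood at 2.18 and 0.758 times replicate 1. Their log2 fold changes between the genotypes were 1.7 and 1.5, above the class median of 0.47. The part of transcript length in these values was not tested further.

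**Figure D4:**
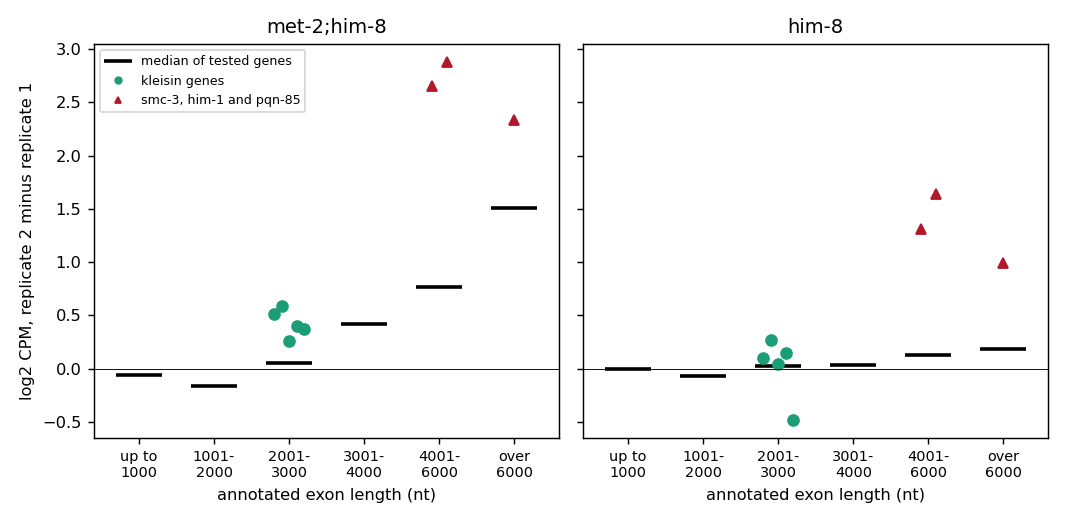
Difference in log2 CPM between replicate 2 and replicate 1 by class of annotated exon length, in met-2;him-8 (left) and him-8 (right). Black bars are medians of the tested genes in each class, green circles the 5 kleisin genes, and red triangles smc-3, him-1 and pqn-85, which lie above the median of their length class in both genotypes.

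The order of the levels per length also depended on the library. On the scale of TMM-scaled RPKM (CPM per kilobase of annotated exon), scc-1 was the highest kleisin in all 4 libraries, at 69.9 and 92.1 in the mutant and at 67.9 and 75.2 in the control. rec-8 followed at 57.8 and 82.6 in the mutant and at 54.2 and 57.9 in the control, below scc-1 in every library although the ranges of the 2 genes overlapped. coh-3, at 19.4 to 31.1, and coh-4, at 20.0 to 32.0, came next and changed places between libraries, so that their levels could not be ordered. coh-1 was the lowest of the 8 genes in every library, at 6.39 and 8.28 in the mutant and at 4.61 and 3.29 in the control. him-1 was at 14 and 103 in the mutant and at 23.2 and 72.2 in the control, and moved from rank 5 among the 8 genes in mutant replicate 1 to rank 1 in mutant replicate 2. smc-3 was at 9.32 and 58.6 in the mutant and at 16.2 and 40.3 in the control. The range of smc-3 overlapped those of him-1, pqn-85, rec-8, coh-3 and coh-4. Among the tested genes with an annotated length, the level of scc-1 stood at percentile 77.2 to 82.5 and that of coh-1 at percentile 40.8 to 48.5.

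In the authors' deposited table, which gives 1 RPKM value per genotype from both replicates, the values were 83.4 and 69.7 for rec-8 and 96.8 and 88.2 for scc-1, in the mutant and control respectively. For 6 of the 8 genes the authors' RPKM was 1.05 to 1.37 times the mean level computed here from counts and annotated exon length. For him-1 it was 2.16 and 2.42 times as high, at 126 and 115, and for coh-1 it was 1.83 and 1.80 times as high, at 13.4 and 7.12. Both genes have more than 1 annotated transcript (2 for him-1 and 4 for coh-1), as do rec-8, coh-4, smc-3 and pqn-85. By the authors' values him-1 was the highest and coh-1 the lowest of the 8 genes in both genotypes. The ranks above and the per-kilobase ratios below rest on the annotated exon length, which matters most for him-1 and coh-1. The part of the length assigned to each gene in these differences was not tested.

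Ratios between genes within a library do not depend on depth or scaling. They come from the same reads as the levels above, so they are no separate evidence for a division of the cohesin genes. Differences between libraries that move with gene length remain in them. Among the meiotic kleisins, coh-3 and coh-4 together stood at 0.819 and 0.765 of rec-8 per kilobase in the mutant and at 0.727 and 0.760 in the control, a range of 1.13-fold. Between the paralogs the proportion varied more, with coh-3 at 0.769 and 0.971 of coh-4 in the mutant and at 0.973 and 1.14 in the control, a range of 1.48-fold. scc-1 stood at 1.21 and 1.12 times rec-8 in the mutant and at 1.25 and 1.30 times in the control. The meiotic kleisins rec-8, coh-3 and coh-4 made up 58.0% and 59.2% of the kleisin reads per kilobase in the mutant and 56.3% and 56.5% in the control. coh-1 stood at 0.0913 and 0.0898 of scc-1 in the mutant and at 0.0679 and 0.0438 in the control, and of these kleisin ratios it differed most between libraries.

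The SMC subunits and the loader varied together. him-1 stood at 1.5 and 1.76 times smc-3 per kilobase in the mutant and at 1.43 and 1.79 times in the control, a range of 1.25-fold over libraries in which each gene on its own varied by more than 6-fold. pqn-85 stood at 1.34 and 1.07 times smc-3 in the mutant and at 1.17 and 0.936 times in the control. By contrast, the 5 kleisins summed stood at 19.5 and 4.2 times smc-3 per kilobase in the mutant and at 10.3 and 4.47 times in the control, a range of 4.63-fold. The length classes of the kleisin genes and of smc-3 had median log2 replicate differences of 0.05 and 0.77 in the mutant. In the control these medians were 0.02 and 0.13. Both libraries numbered 1 had the higher kleisin to smc-3 ratio, in both genotypes. With 2 libraries per genotype these ratios were not tested.

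**Figure D5:**
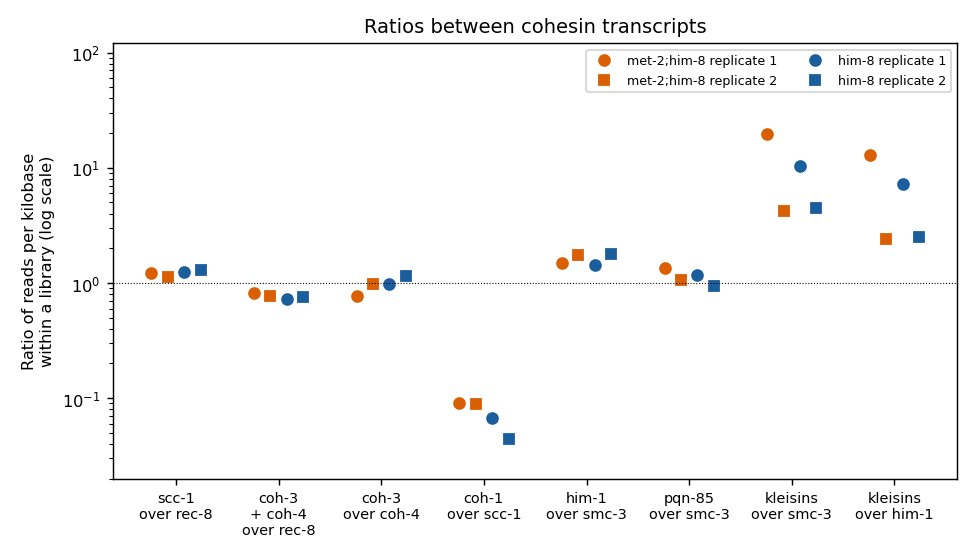
Ratios of reads per kilobase within each library (log axis), with met-2;him-8 in orange, him-8 in blue, replicate 1 as circles and replicate 2 as squares, and the dotted line at 1. The 4 libraries lie within 1.25-fold for him-1 over smc-3 and within 1.13-fold for coh-3 plus coh-4 over rec-8, but spread 4.63-fold for the kleisins summed over smc-3, where the circles lie above the squares.

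The pattern over the 4 libraries was compared between genes as the root mean square difference of log2 CPM after centring each gene on its mean. rec-8 differed from coh-3 by 0.0732, from scc-1 by 0.0817, from coh-4 by 0.146 and from coh-1 by 0.363, but from him-1 by 1.02. smc-3 differed from him-1 by 0.141 and from pqn-85 by 0.187. The tested genes whose pattern was most like that of rec-8 were ZK686.1, gld-1 (a translational repressor of meiotic germ cells) and W07A8.2, at 0.0173, 0.0186 and 0.0196. ZK686.1 was at 39.9 and 55.7 CPM in the mutant and at 37.4 and 40.3 CPM in the control. With only 4 libraries, 23 of the tested genes lay within 0.05 of rec-8, so this likeness is a description of these libraries.

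The 12 other genes that act on cohesin also showed no difference between the genotypes that passed the adjusted threshold in edgeR's quasi-likelihood test (0 of 12 genes, and 0 in DESeq2's Wald test), and 1 of the 12 had an unadjusted p below 0.05 in edgeR, against 4.84% of all tested genes. Their log2 fold changes lay between -0.33 and 0.58, with a median of 0.17, 9 of them above and 3 below 0. The highest was sep-1, which encodes separase, the protease that cuts the kleisin. It was at 501 and 564 CPM in the mutant and at 371 and 342 CPM in the control, with no overlap between the genotypes. In sep-1 the log2 fold change was 0.58 (SE 0.19, unadjusted p = 0.0268, adjusted p = 0.886 in edgeR's test), and its unadjusted p in DESeq2's Wald test was 0.0545. The separase inhibitor securin, encoded by ify-1, had a log2 fold change of 0.27 (SE 0.18), and wapl-1, whose product releases cohesin from chromosomes, one of 0.36 (SE 0.19), both with an adjusted p of at least 0.888 in edgeR's test. wapl-1, ify-1 and the Aurora B kinase gene air-2 were also higher in both mutant libraries than in both control libraries, which makes 4 of the 12 genes with sep-1, against 16.9% of all tested genes. With library totals in place of TMM there were again 4, with scc-3 in place of air-2.

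The lowest estimate was that of mau-2, which encodes the partner of the pqn-85 product in the loader. Its log2 fold change was -0.33 (SE 0.23, adjusted p = 0.897 in edgeR's test), and both mutant libraries lay below both control libraries, as for 19.8% of all tested genes. Its mean was 83.2 ± 11.1 CPM (SD, n = 2) in the mutant and 105 ± 5.64 CPM (SD, n = 2) in the control. Replicate 2 of mau-2 stood at 0.827 times replicate 1 in the mutant and at 1.08 times in the control, where the ratios of pqn-85 were 5.04 and 1.99. The genes differ in exon length, with 1970 nucleotides for mau-2 and 7054 for pqn-85. The median log2 replicate differences of their length classes were -0.16 and 1.51 in the mutant and -0.07 and 0.18 in the control. The part of length in this contrast was not tested.

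The other regulators fell on both sides of the division seen among the cohesin genes. scc-3, with an exon length of 3553 nucleotides, encodes the ring's SA-type subunit. It was at 238 and 371 CPM in the mutant and at 232 and 265 CPM in the control. Its replicate 2 was 1.56-fold above replicate 1 in the mutant and 1.14-fold in the control. The highest such ratios of the kleisins were 1.51 and 1.20. evl-14, the PDS5-type regulator (4928 nucleotides), moved with smc-3 and him-1, at 30.5 and 185 CPM in the mutant and at 53.4 and 132 CPM in the control. So did hasp-1, the haspin kinase gene, which is listed in the files as C01H6.9 and has 2999 nucleotides of exon. It was at 12.0 and 58.6 CPM in the mutant and at 14.7 and 50.2 CPM in the control. tim-1, which encodes the worm TIMELESS protein and is at 4180 nucleotides longer than smc-3 and him-1, was at 187 and 312 CPM in the mutant and at 226 and 309 CPM in the control, so its replicates differed by 1.67-fold and 1.37-fold. For lab-1 and the protein phosphatase 1 gene gsp-2, whose products protect meiotic cohesion between sister chromatids, and for the shugoshin gene sgo-1, the log2 fold changes lay between -0.20 and 0.08, with an adjusted p of at least 0.976 in edgeR's test.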

How the data were processed

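Messenger RNA from dissected adult gonads was sequenced in 4 libraries, grouped and numbered as their titles give it. The authors aligned reads with STAR and deposited estimated counts per gene and library, not scaled to depth. Of these, 53 to 66 genes per library were not whole, and all were rounded. The tool and annotation behind the counts are not given in the sources used here. The authors also deposited RPKM values from Cuffdiff 2.2.1, with 1 value per genotype. The fold changes and p-values of the authors' own comparison were not used.

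Counts were fitted with edgeR's quasi-likelihood functions (version 4.0.16, R 4.3.3) after TMM scaling and the filterByExpr defaults, without a replicate block and with Benjamini-Hochberg adjustment over all tested genes and a threshold of 0.05. Standard errors came from the fold change and the F statistic, and 95% intervals from the same fit. DESeq2 1.42.0, other scalings, no filter, robust dispersion, the replicate number as a block and each library left out were alternatives. Log2 CPM used a prior count of 2. Exon lengths were taken from the WBcel235 annotation for 19901 genes. The deposited tables name no build, so coordinates are those of the authors' files, with starts counted from 1. The script was tested on simulated counts. PCR duplicates are not marked, so intervals on reads cover counting error only. The p-values set the genotype difference against the spread between these libraries. For this the variance of each gene was moderated with that of the other tested genes.

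Named in the text were the 8 cohesin genes, 12 listed regulators, the mutated gene met-2, marker genes and the 3 genes most like rec-8. hasp-1 was found through its locus tag. The members and lists were chosen with earlier results of these data known.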

Additional observations from a re-analysis of the deposited data

How the results depend on the processing

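No cohesin gene and no listed regulator passed the adjusted threshold under any of the alternatives. Over all tested genes edgeR called 0 genes in the main analysis, 113 with no expression filter and 144 when replicate numbers entered as a block (replicate block), and DESeq2's Wald test called 26. The libraries share only replicate numbers, and deviations of same-numbered libraries from their genotype means had a correlation of 0.358 across genes. With the replicate block the log2 fold change was -0.12 for smc-3 and -0.11 for him-1, against 0.27 and 0.30 without it, and it was 0.07 for pqn-85 against 0.41. The standard errors with the block were 0.30, 0.29 and 0.29 for smc-3, him-1 and pqn-85, against 0.90, 1.0 and 0.79 without it. The block changed no other direction among the 8 genes, and the cause was not tested. With single libraries left out, the log2 fold changes ranged from -1.61 to 1.08 for smc-3, from -1.78 to 1.35 for him-1, from -1.2 to 1.16 for pqn-85, from -0.07 to 0.55 for coh-3 and from -0.04 to 0.38 for scc-1. They ranged from 0.04 to 0.57 for rec-8, from 0.39 to 0.67 for coh-4 and from 0.67 to 1.14 for coh-1, where no direction changed. A genotype with 1 library left was assumed to vary like the other. Without division by gene length the mean log2 ratio moved from -0.38 to -0.62 for coh-3 plus coh-4 over rec-8, from 0.28 to 0.08 for scc-1 over rec-8 and from 0.16 to 0.98 for pqn-85 over smc-3. Of all alternative values, 10 reversed, 6 moved beyond their tolerance (1.5 times for counts, 1 SD over libraries for values without a test) and 184 did neither. Fold changes among the 184 kept their sign and call, whatever their size. The shallowest library, him-8 replicate 2, limits coh-1 most, where it gave 132 reads.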
